A study of Mus musculus with 4 samples.

Results

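Granins and the enzymes that cut prohormones are represented here by 9 genes, chosen by name from the 32288 features of the tables: the granins Chga, Chgb, Scg2 and Scg3, the convertases Pcsk1 and Pcsk2, their small partner proteins Scg5 and Pcsk1n, and the carboxypeptidase Cpe. Granins are acidic proteins that condense inside the dense-core granules in which endocrine cells store peptide hormones. Within these granules Pcsk1 (PC1/3) and Pcsk2 (PC2) cut prohormones at pairs of basic residues, Scg5 (7B2) is a chaperone that Pcsk2 needs to become active, Pcsk1n (proSAAS) gives rise to an inhibitor of Pcsk1, and Cpe trims the basic residues left behind. Because the convertases cut at different sites, the same prohormone can give different peptides in cells that hold one or the other, as proglucagon does in islet alpha cells and intestinal L cells.

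Single-cell RNA was measured in sorted EYFP-positive pancreas cells of 4 mice, all Ptf1aCre-ERTM;ROSAYFP/+ animals backcrossed into CD-1 and 10 weeks old when injury began. All were given tamoxifen to label acinar cells through a Cre under the control of Ptf1a, and were then injured with caerulein, which overstimulates acinar cells and inflames the pancreas, over 2 weeks in 2 of the mice and over 4 weeks in the other 2. Uninjured mice are not analysed here, so each comparison over time is between these durations of injury. The authors' labels place 13362 cells in 8 types and 2586 of the tuft and enteroendocrine cells in 9 subtypes. 5 subtypes are enteroendocrine and hold 1269 cells: EEC-Progenitor, Epsilon, Delta, ECL and Ppy+.

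The markers of these subtypes were checked first, as mean CPM, a gene's UMIs per 1000000 UMIs of the subtype (SD over n = 4 mice). Neurog3, the transcription factor of endocrine progenitors, stood at 2411 ± 154 CPM in EEC-Progenitor cells and at 124 ± 42.4 CPM or below in the other 4. Ghrl (ghrelin) stood at 173763 ± 98603 CPM in Epsilon cells, Sst (somatostatin) at 83254 ± 18100 CPM in Delta cells, and Ppy and Pyy at 78230 ± 42592 and 117805 ± 13962 CPM in Ppy+ cells. ECL cells held Tac1 (607 ± 268 CPM) and Tph1 of serotonin synthesis (42.8 ± 6.86 CPM), but Hdc, the histamine-making enzyme of gastric enterochromaffin-like cells, was at 2.53 ± 3.96 CPM. That is no higher than in Epsilon cells (7.01 ± 6.25 CPM), so ECL is used below as the authors' name only. There were 45 and 166 EEC-Progenitor cells at 2 weeks, then 85 and 95 at 4 weeks, and the smallest count in the other 4 was 20, for Ppy+ cells of 2-week mouse 2. Of 21068 cell barcodes, 67 occurred in more than 1 mouse. The types and subtypes had been defined on these same counts, so no test was made between them and the levels below are a description.

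4 of the 8 members with a promoter in the RefSeq table hold a short motif or its variant, which the choice of genes did not use. The cAMP response element TGACGTCA lies close upstream of Chgb, Scg2 and Pcsk1, and the variant TGACGTAA close upstream of Chga. The stretches from 90 to 31 bases before the start site are shown for these 4, with the element in capitals, and for Pcsk2, in which no such element was found, so that both convertases can be compared.
Chga: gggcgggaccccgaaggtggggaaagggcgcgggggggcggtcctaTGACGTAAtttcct
Chgb: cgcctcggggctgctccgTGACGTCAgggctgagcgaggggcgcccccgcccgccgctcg
Scg2: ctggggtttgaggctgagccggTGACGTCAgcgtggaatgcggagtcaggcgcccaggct
Pcsk1: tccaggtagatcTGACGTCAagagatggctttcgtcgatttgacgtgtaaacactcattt
Pcsk2: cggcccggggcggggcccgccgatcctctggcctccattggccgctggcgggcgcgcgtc
On GRCm38.p6 these stretches are chr12:102554851-102554910 on the plus strand for Chga, chr2:132781552-132781611 on the plus strand for Chgb, chr1:79440057-79440116 on the minus strand for Scg2, chr13:75089767-75089826 on the plus strand for Pcsk1 and chr2:143546043-143546102 on the plus strand for Pcsk2. The element begins 44 bases before the start in Chga, 72 in Chgb, 68 in Scg2 and 78 in Pcsk1. Both motifs were searched on both strands in the 300 bases from 250 before to 50 after each start. TGACGTCA was found in 588 of 32851 mouse promoters (1.79%) and TGACGTAA in 164 (0.499%). The share with either motif was not counted, and no test was made. Neither was found in this window of Scg3, Scg5, Pcsk2 or Pcsk1n, and Cpe had no entry. A match is a match of letters only, and the data hold no measure of what binds there.

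All 9 members were far higher in cells typed EEC than in the acinar cells of the same mouse. The 8 members other than Cpe were 55.4-fold to 1931-fold higher in each mouse in which a fold could be formed, and Cpe 29.5-fold to 55.1-fold. The 7778 cells without a type are in the authors' merged table and not in the one they name filtered YFP+. Those among them that carried B-cell markers (565 cells, median 2952 to 3894 UMIs in the 4 mice) gave the background of free RNA. Chgb stood there at 4.45 to 15.1 CPM and in 2.27% to 8.84% of cells, and Cpe stood at 3.24 to 9.09 CPM. Pcsk2 stood at 0 to 1.82 CPM, and no Pcsk1 UMI was found in any of the 4 mice, which allows at most 3.24 to 5.45 CPM.

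Within the enteroendocrine subtypes the members followed different orders, as the plot of the 9 genes by subtype shows. Chga and Chgb were highest in ECL cells, Scg2, Pcsk1n, Scg5 and Pcsk2 had their highest mean in Ppy+ cells, and Pcsk1 varied least over the 5 subtypes. EEC-Progenitor cells had the lowest mean of every member except Pcsk1.

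**Figure D1:**
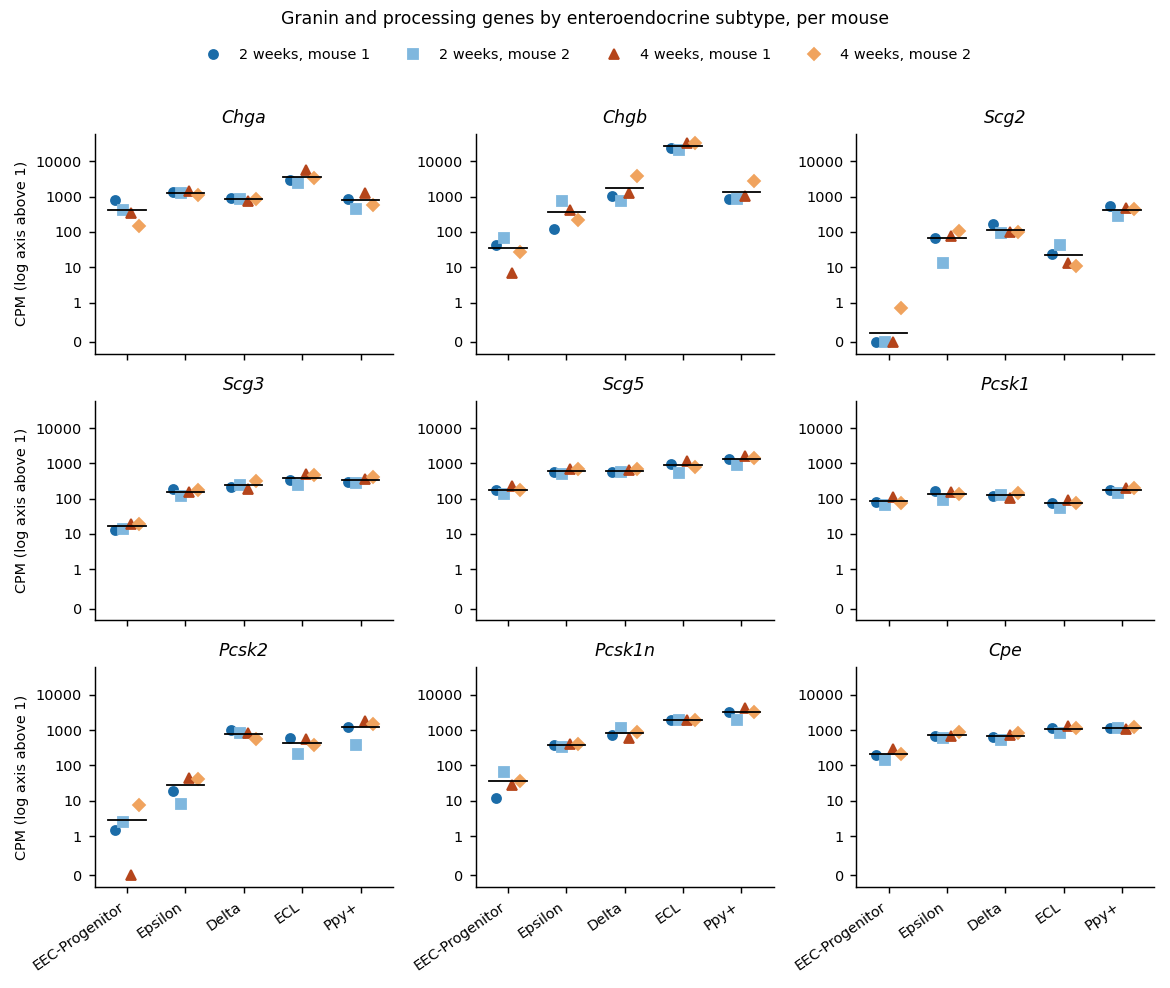
Level of each member in the 5 enteroendocrine subtypes: each point is 1 mouse (CPM of the subtype, logarithmic above 1 and linear below), and the bar is the mean of 4 mice. Chgb reaches 20222 to 33546 CPM in ECL cells of the 4 mice, while Pcsk1 lies between 54.2 and 203 CPM in every subtype and mouse.

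Chga (chromogranin A), the granin used most widely as an endocrine marker, was found in ECL cells at 3029 and 2375 CPM after 2 weeks and at 5563 and 3468 CPM after 4 weeks. Epsilon cells held 1325, 1278, 1474 and 1114 CPM in the same order, below ECL cells in each mouse. The ECL level was above the Epsilon level by 1.41 ± 0.46 on the log2 scale within mice (SD, n = 4). Delta (847 ± 74.4 CPM) and Ppy+ cells (782 ± 372 CPM) overlapped each other. EEC-Progenitor cells already held Chga, at 785 and 427 CPM at 2 weeks and 350 and 145 CPM at 4 weeks, with a UMI in 26.3% to 62.2% of cells. This Chga was in those typed EEC (501 ± 293 CPM, 4 mice), while the 28 typed Tuft/EEC.Progenitor in 2-week mouse 2 held 2.23 CPM.

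Chgb (chromogranin B), the companion of Chga in granules, had the widest range among the 4 mature subtypes. ECL cells held 23560 and 20222 CPM at 2 weeks and 32920 and 33546 CPM at 4 weeks, with a UMI in every one of their 217 cells. No other subtype came near: the highest single value outside ECL was 3747 CPM, in Delta cells of 4-week mouse 2. The ECL level exceeded the Epsilon level by 6.50 ± 1.27 on the log2 scale, the Delta level by 4.27 ± 0.75 and the Ppy+ level by 4.50 ± 0.64 (SD, n = 4 mice). Outside ECL a few cells held much of the Chgb: the 3 cells with most accounted for 90.2% of the Epsilon UMIs in 2-week mouse 2, for 71.0% of the Ppy+ UMIs in 4-week mouse 2 and for 31.2% to 67.2% of the Delta UMIs in the 4 mice. Epsilon cells thus ranged from 122 to 740 CPM between mice while 44.2% to 62.1% of them had a UMI, and their mean of 371 CPM was 201 CPM without the 5% deepest cells. EEC-Progenitor cells held only 36.1 ± 25.6 CPM (6.95 to 67.8 CPM), with a UMI in 4.21% to 18.1% of cells. Their lowest value lay within the 4.45 to 15.1 CPM of B-cell marker cells, and their mean below that of Acinar/MucinDuctal cells (84.9 ± 56.4 CPM).

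Scg2 (secretogranin II, the precursor of secretoneurin) had another order. Ppy+ cells held 525 and 290 CPM at 2 weeks and 466 and 443 CPM at 4 weeks, above every value of the other subtypes. Delta cells followed at 115 ± 36.4 CPM, overlapping Epsilon cells at 66.3 ± 39.0 CPM, a mean that was 43.6 CPM without the 5% deepest cells. ECL cells, the highest for both chromogranins, held only 22.9, 41.7, 13.4 and 10.7 CPM of Scg2, with a mean log2 ratio to Ppy+ cells of -4.45 ± 1.16, and 37 of the 40 UMIs in 2-week mouse 2 came from 1 cell, which was led by the insulin gene Ins2. Without that cell this mouse had 3 Scg2 UMIs (3.39 CPM), the ECL mean was 12.6 ± 8.08 CPM and the log2 ratio to Ppy+ cells -5.36 ± 0.79, an omission chosen after seeing the data. In EEC-Progenitor cells a single UMI was found in the 4 mice. Scg3 (secretogranin III), which binds Chga to the granule membrane, was more even, at 392 ± 125 CPM in ECL, 338 ± 61.2 in Ppy+, 241 ± 51.5 in Delta and 158 ± 29.4 in Epsilon cells, and 16.4 ± 3.26 in EEC-Progenitor cells. ECL and Ppy+ values overlapped, as did Ppy+ and Delta values.

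Pcsk1, the convertase that cuts proghrelin, was the most even member over all 5 subtypes, though not among the 4 without EEC-Progenitor cells, where the means of Cpe and Scg5 spanned a smaller fold. Ppy+ cells held 172 and 140 CPM at 2 weeks and 203 and 202 CPM at 4 weeks, Epsilon cells 160, 93.3, 155 and 139 CPM, and Delta cells 119, 130, 108 and 144 CPM. EEC-Progenitor cells held 80.8, 68.2, 114 and 74.2 CPM and ECL cells 75.0, 54.2, 93.7 and 76.3 CPM. Each subtype overlapped its neighbour in this order. Within mice, however, ECL cells were below Epsilon cells in 4 of 4, with a log2 ratio of -0.87 ± 0.16, and below Ppy+ cells in 4 of 4, with a log2 ratio of -1.27 ± 0.14. In 2-week mouse 2, 19 of the 52 Pcsk1 UMIs of ECL cells came from the cell led by Ins2. Without it this mouse held 37.3 CPM and the log2 ratio to Ppy+ cells was -1.41 ± 0.36, again an omission chosen after seeing the data. Pcsk1 was also found in EEC-Progenitor cells with little hormone RNA. Of these 391 cells, 371 had no leading hormone, by the definition given below for ECL cells, the list of hormone genes held at most 0.219% of the UMIs of any of the 371, and 172 of them had a Pcsk1 UMI. This was not particular to EEC-Progenitor cells. With no leading hormone, 35 of 68 Epsilon cells and 40 of 108 ECL cells had a Pcsk1 UMI. The list held a median of 0.0187% of UMIs in these Epsilon cells and 0.0279% in these ECL cells.

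Pcsk2, the convertase that releases glucagon in islet alpha cells, split the subtypes. Ppy+ cells held 1228 and 373 CPM at 2 weeks and 1866 and 1451 CPM at 4 weeks. Delta cells held 987, 819, 802 and 561 CPM and ECL cells 606, 214, 560 and 391 CPM, both overlapping the subtype above them. Epsilon cells held only 18.5 and 7.85 CPM at 2 weeks and 44.2 and 41.9 CPM at 4 weeks, and EEC-Progenitor cells 1.47, 2.48, 0 and 7.67 CPM. Of the 9 UMIs behind the last EEC-Progenitor value, 6 came from 1 cell, which was led by Sst. Both of these subtypes were low. Epsilon values were thus below every Delta, ECL and Ppy+ value, and the gap to Delta cells was 5.09 ± 1.37 on the log2 scale (SD, n = 4 mice). They were still above the 0 to 1.82 CPM of the B-cell marker cells. A Pcsk2 UMI was found in 7.0% to 19.8% of Epsilon cells. Once each cell was thinned to 1500 UMIs, this was 0.830% to 4.52%, against at most 0.154% of B-cell marker cells. Other labels that are not endocrine overlapped the Epsilon range. Ductal-like cells held 0 to 44.8 CPM of Pcsk2 and Acinar/MucinDuctal cells 0.918 to 12.5 CPM. After thinning, 0% to 3.64% and 0.226% to 2.24% of these cells had a Pcsk2 UMI.

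The partner proteins did not follow one convertase each. Scg5, the Pcsk2 chaperone, was nearly as high in Epsilon cells, where Pcsk2 is scarce (614 ± 80.2 CPM), as in Delta cells, where it is not (621 ± 62.5 CPM). Delta cells had the higher Scg5 level in 2 of 4 mice, with a mean log2 difference of 0.02 ± 0.11. Ppy+ cells had the highest mean, at 1312 ± 324 CPM. EEC-Progenitor cells held 177 ± 39.4 CPM of Scg5, in 62.0% to 78.8% of cells, although their Pcsk2 was near background. Those typed EEC held 203 ± 44.0 CPM of Scg5, and the 28 typed Tuft/EEC.Progenitor in 2-week mouse 2 held 26.7 CPM. Pcsk1n, whose product inhibits Pcsk1, was highest in Ppy+ cells, at 3217 and 1994 CPM at 2 weeks and 4266 and 3310 CPM at 4 weeks. It was 1994, 1920, 1958 and 1909 CPM in ECL cells, the closest agreement among mice of any member in that subtype, and 840 ± 242 CPM in Delta, 377 ± 33.0 in Epsilon and 35.6 ± 22.8 in EEC-Progenitor cells. The Epsilon mean was 261 CPM without the 5% deepest cells and 288 CPM as a mean over cells. Without the Ins2-led cell, ECL cells of 2-week mouse 2 held 2023 CPM, above the 1994 CPM of its Ppy+ cells. ECL cells thus combined the lowest mean of Pcsk1 with the second highest mean of Pcsk1n.

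Cpe, which acts after both convertases, was high in all mature subtypes. It stood at 1133 ± 80.5 CPM in Ppy+ and 1110 ± 206 in ECL cells, which overlapped, and at 711 ± 106 in Epsilon and 686 ± 132 in Delta cells, which overlapped each other, and at 209 ± 60.9 CPM in EEC-Progenitor cells. The highest Epsilon value (859 CPM) passed the lowest ECL value (842 CPM), but within mice ECL was above Epsilon in 4 of 4, by 0.63 ± 0.27 on the log2 scale. EEC-Progenitor cells typed EEC held 240 ± 68.4 CPM of Cpe, and the 28 typed Tuft/EEC.Progenitor in 2-week mouse 2 held 22.3 CPM. Cpe was also found in tuft cells, chemosensory cells that are not endocrine. Cells typed Tuft held 209 and 122 CPM at 2 weeks and 311 and 201 CPM at 4 weeks, 6.96-fold to 15.7-fold above acinar cells and 7.77-fold to 25.0-fold above MucinDuctal cells of the same mouse, with a UMI in 54.4% to 92.8% of cells. Thinned to 1500 UMIs, 13.5% to 36.0% of Tuft cells kept a Cpe UMI, against 1.92% to 3.75% of acinar cells. Among tuft subtypes Tuft-3 cells held 304 ± 79.6 CPM and Tuft-2 cells 157 ± 64.1 CPM, higher in Tuft-3 in 4 of 4 mice by 1.02 ± 0.64 on the log2 scale. Tuft-1 cells numbered 20 or more in only 2 mice, in which they held 25.7 and 10.2 CPM. Chga stood at 1.23 ± 1.26 CPM and Pcsk2 at 0.067 ± 0.134 CPM in Tuft-3 cells. Scg5 was low but above background there, at 7.65 to 20.5 CPM against 0 to 2.82 CPM in B-cell marker cells, and in cells typed Tuft it was above acinar cells in 4 of 4 mice (2.54-fold to 24.7-fold) and above MucinDuctal cells in 4 of 4 (2.07-fold to 10.0-fold). The highest Tuft level, 39.7 CPM in 4-week mouse 1, was 26.6 CPM without 3 cells that carry an enteroendocrine subtype. This low Scg5 was not particular to tuft cells. Tuft-3 cells held 12.0 ± 6.01 CPM, Acinar/MucinDuctal cells 12.1 ± 6.02 CPM and Ductal-like cells 8.92 ± 9.88 CPM. Tuft/EEC.Progenitor cells held 22.2 ± 14.1 CPM (3 mice).

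Other genes of the pathway were read from a list of 16. Pam, which amidates peptide ends after Cpe has acted, was also lowest in EEC-Progenitor cells, at 58.6 ± 17.9 CPM in EEC-Progenitor cells, 465 ± 122 in Epsilon, 512 ± 123 in Delta, 514 ± 60.9 in Ppy+ and 711 ± 32.5 in ECL cells. Ptprn, a protein of the granule membrane, stood at 1.95 ± 0.692 CPM in EEC-Progenitor cells and at 55.4 ± 10.6 to 168 ± 47.0 CPM in the other 4, whereas its relative Ptprn2 was already at 76.4 ± 8.25 CPM in EEC-Progenitor cells. Ctsl, a cathepsin that also cuts prohormones in granules, had a different order, with 948 ± 145 CPM in Epsilon and 343 ± 43.5 CPM in ECL cells. The general convertase Furin and the carboxypeptidase Cpd were higher in MucinDuctal cells (92.3 ± 33.8 and 157 ± 39.5 CPM) than in EEC cells (33.5 ± 2.37 and 43.9 ± 6.41 CPM). Cpm, a carboxypeptidase of the cell surface, stood at 106 ± 40.6 CPM in Tuft cells and 9.09 ± 1.11 CPM in EEC cells. Vgf, a granin-like precursor, was at 2.21 ± 1.93 CPM in EEC cells.

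The balance of the 2 convertases was then read as the Pcsk1 share of the summed Pcsk1 and Pcsk2 UMIs. UMIs from 3' ends count transcripts without regard to their length, but how well each of these genes is captured is not known, so the share is compared between subtypes and not against an equal split. EEC-Progenitor cells gave 98.2% and 96.5% at 2 weeks, then 100% and 90.6% at 4 weeks. In the last of these mice 1 Sst-led cell held 6 of the 9 Pcsk2 UMIs, and the 89 cells with no leading hormone gave 96.4%. Epsilon cells gave 89.6% and 92.2%, then 77.8% and 76.9%. In Delta cells it was 10.8%, 13.7%, 11.8% and 20.4%, in ECL cells 11.0%, 20.2%, 14.3% and 16.3%, and in Ppy+ cells 12.3%, 27.3%, 9.80% and 12.2%. The lowest value of the first 2 subtypes was 76.9% and the highest of the last 3 was 27.3%, as the plot of the convertase balance shows. The means were 96.3% ± 4.07 and 84.1% ± 7.95 in EEC-Progenitor and Epsilon cells and 14.2% ± 4.32, 15.5% ± 3.86 and 15.4% ± 8.02 in Delta, ECL and Ppy+ cells (SD, n = 4 mice). Taken as a mean over cells with a UMI of either gene, in place of summed UMIs, the share was 31.2%, 35.7% and 23.8% in Delta, ECL and Ppy+ cells, and reached 52.9% in ECL cells of 2-week mouse 2. Pcsk1 levels overlapped between neighbouring subtypes, while Pcsk2 levels of Epsilon and EEC-Progenitor cells lay below all others.

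**Figure D2:**
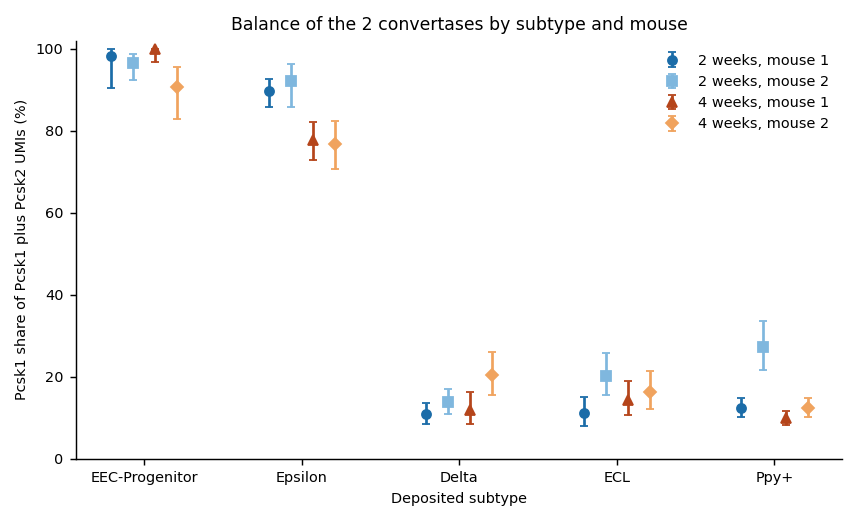
Pcsk1 share of all Pcsk1 and Pcsk2 UMIs (percent) for each mouse in the 5 subtypes, with exact 95% binomial intervals that cover counting error only. EEC-Progenitor and Epsilon values lie between 76.9% and 100%, and Delta, ECL and Ppy+ values between 9.80% and 27.3%.

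The share of Epsilon cells was lower in both 4-week mice than in both 2-week mice, with a difference of -13.6 percentage points between the means of summed UMIs and of -5.94 points when the share is a mean over cells. An exact permutation test over mice, two-sided, gave p = 0.33, the smallest that 2 against 2 can give, so no difference in share could pass a threshold here. The same exact test gave p = 0.33 in Ppy+, 0.67 in Delta and 1 in EEC-Progenitor and ECL cells. In Ppy+ cells 2-week mouse 2 (27.3%) stood above the other 3 mice (9.80% to 12.3%), and it contributed 20 cells.

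In single cells the share with both convertases was highest in Ppy+ and lowest in EEC-Progenitor cells. Both had a UMI in 80.7% ± 3.06 of Ppy+ cells, 48.0% ± 14.4 of Delta, 25.0% ± 13.9 of ECL, 13.7% ± 5.86 of Epsilon and 1.13% ± 1.31 of EEC-Progenitor cells (SD, n = 4 mice). More Delta cells had both (70) than Pcsk1 alone (22) or Pcsk2 alone (38). Of 377 Epsilon cells, 219 had Pcsk1 alone, 52 had both and 6 had Pcsk2 alone. These shares depend on depth. With each cell thinned to 1500 UMIs the share with both fell to 16.9% in Ppy+, 8.02% in Delta, 3.38% in ECL, 0.691% in Epsilon and 0.061% in EEC-Progenitor cells. The order of the subtypes was kept. The order within a subtype was not. In thinned Delta cells Pcsk2 alone (37.1%) and Pcsk1 alone (9.63%) were each more frequent than both (8.02%), the reverse of the counts above. In thinned Ppy+ cells Pcsk2 alone (49.8%) passed both (16.9%). In thinned Epsilon cells Pcsk2 was more often alone (2.18%) than with Pcsk1. A cell with neither UMI at this depth cannot be read as lacking both.

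**Figure D3:**
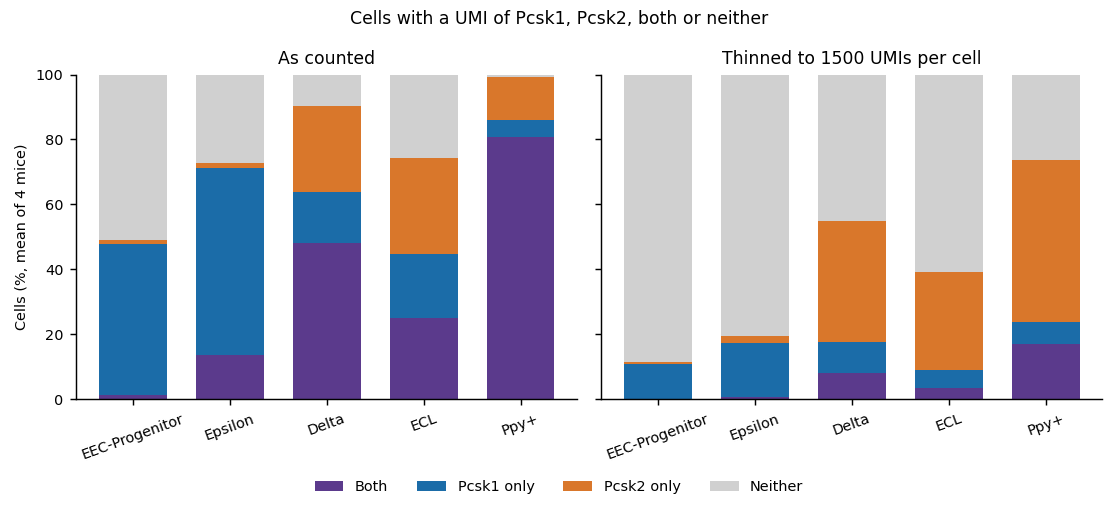
Share of cells (percent, mean of 4 mice) with a UMI of both convertases, of Pcsk1 only, of Pcsk2 only or of neither, as counted and after each cell was thinned to 1500 UMIs. Cells with both make up 80.7% of Ppy+ and 1.13% of EEC-Progenitor cells as counted.

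ECL cells were led by several hormones or by none, and the convertases differed among these groups. Cells were grouped by a leading hormone, the gene of a list of 14 that had at least 10 UMIs and at least 50% of the cell's hormone UMIs. Of 217 ECL cells 41 were led by Gip, 21 by Gast, 20 by Tac1, 14 by Pyy and 7 by Iapp, 108 had no leading hormone, and the rest were led by another gene. The 108 held little RNA of any listed hormone, with a median of 0.0279% of UMIs and under 1% in 107 of them. In Tac1-led cells Pcsk2 was found in 4 of 20 (20.0%, exact 95% interval 5.73% to 43.7%), with 14 UMIs in all, 10 of them in 2 cells of 2-week mouse 1. In Gip-led cells it was found in 29 of 41 (70.7%, 54.5% to 83.9%), in Gast-led cells in 18 of 21 (85.7%, 63.7% to 97.0%) and in Iapp-led cells in 7 of 7. Pcsk1 did not show this order, with 13 of 20 Tac1-led, 21 of 41 Gip-led, 7 of 21 Gast-led and 6 of 7 Iapp-led cells. Pyy-led cells had each convertase in 7 of 14, and the 108 cells with no leading hormone had Pcsk1 in 40 and Pcsk2 in 45. The median depth was 11822 UMIs in Tac1-led, 10186 in Gip-led and 9066 in Gast-led cells, and the part of depth in these shares was not tested. The intervals treat cells as independent and cover counting error only. Mice were unevenly spread: Gast-led cells came from 3 mice, with 20 of 21 at 4 weeks, and in 2-week mouse 2 Pcsk2 was absent from all 3 Gip-led cells, while 3 Iapp-led cells gave 95 of the 205 Pcsk2 UMIs of its ECL cells. Chgb was high in all of these groups, from 13382 CPM in Iapp-led to 41138 CPM in Tac1-led cells, and Scg5 ranged from 467 CPM in Tac1-led to 1433 CPM in Gast-led cells. One more ECL cell, of 2-week mouse 2, was led by Ins2, with 74149 UMIs in all. Without it the Pcsk1 share of that mouse was 17.0% in place of 20.2%.

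**Figure D4:**
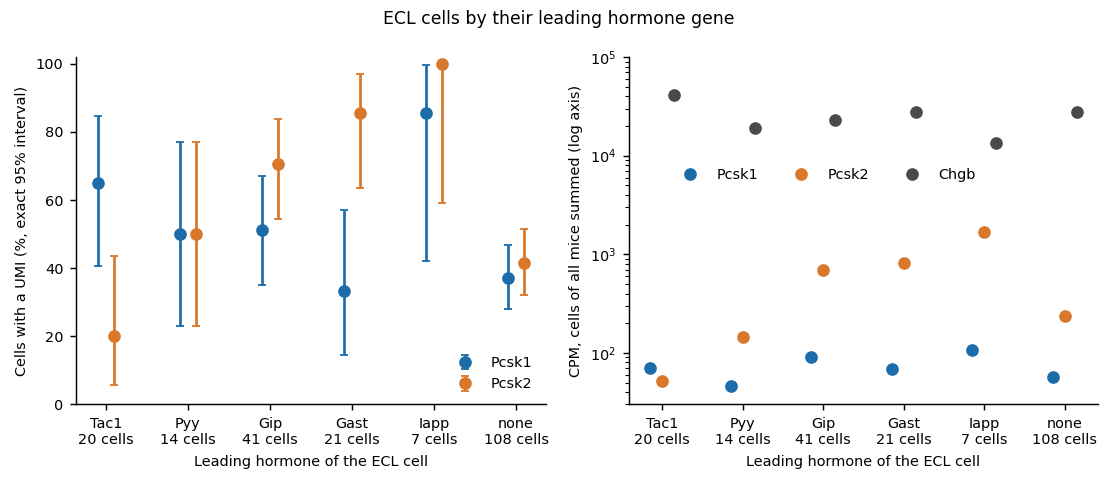
ECL cells by leading hormone. Left, percent of cells of all mice together with a Pcsk1 or Pcsk2 UMI. The exact 95% binomial intervals treat cells as independent and cover counting error only, not the spread between mice. Right, CPM of Pcsk1, Pcsk2 and Chgb summed over cells of all mice, on a logarithmic axis. Pcsk2 is found in 20.0% of Tac1-led and 85.7% of Gast-led cells, and 20 of the 21 Gast-led cells are from 4-week mice.

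In the other subtypes cells of the same leading hormone were compared between labels. Ghrl-led cells gave a Pcsk1 share of 82.1% in Epsilon cells (305 cells) and of 19.9% in the 13 Ghrl-led cells named Ppy+. By mouse those 13 cells gave 20.7% in 6 cells and 46.7% in 2 cells at 2 weeks, and 8.42% in 3 cells and 88.9% in 2 cells at 4 weeks, so this group did not keep 1 value. Pyy-led cells gave 13.8% in Ppy+ cells (68 cells) and 10.6% in Delta cells (14 cells). Ppy-led cells gave 8.86% (35 cells) and Sst-led Delta cells 13.6% (115 cells).

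The genes most like each member across the 9 tuft and enteroendocrine subtypes were taken as the 3 with the highest Pearson correlation of mean log2(CPM + 10), among 4996 genes that reached 50 CPM in a subtype. The 9 points share libraries and a common split between tuft and enteroendocrine cells, so high values are usual. Chga was closest to Pnmal1, Rfx6 (a transcription factor of endocrine cells) and Ptprn2, at r = 0.993, 0.991 and 0.991. Chgb was closest to Klhl32, Nnat and Grb14, at 0.985, 0.980 and 0.980. Scg2 was closest to Rnf138rt1, Acvr1c and Uchl1, at 0.989, 0.983 and 0.978, and Pcsk1 to Yaf2, B630019K06Rik and Syt7, at 0.987, 0.983 and 0.981. Pcsk1n and the muscle-type micropeptide gene Mrln reached 0.999, and Mrln and Pcsk1n were also among the 3 closest to Scg3, at 0.993 each. Pcsk2 was closest to Pcsk2os1 at 0.989, a transcript annotated opposite Pcsk2. Whether counting used strand is not given in the sources used here, so reads of these 2 may not be told apart. Scg5 was closest to the digestive enzyme genes Try4, 2210010C04Rik and Ctrc, at 0.997, 0.997 and 0.992, and Try4 ranged from 476 CPM in Tuft-1 to 1950 CPM in Ppy+ cells, none of them acinar cells by label. The correlation does not compare the size of the change, since Scg5 went from 4.86 to 1312 CPM between the same 2 subtypes. Acinar cells are outside this comparison and held Scg5 at only 2.05 ± 0.913 CPM, so the likeness does not extend to them. Cpe was closest to Tmcc3, Ssr2 and Rnf115, at 0.971, 0.964 and 0.960. With a pseudocount of 1 in place of 10, 0 of the 3 genes stayed for Chgb, 1 for Chga, Pcsk2 and Pcsk1n, and 2 for the other 5 members.

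The change from 2 to 4 weeks was tested in 8 sets of cells with edgeR's quasi-likelihood test on UMIs summed per mouse, with p-values adjusted over all genes tested. No member passed an adjusted p of 0.05 in any of them. In EEC cells 0 of 9 members passed, where 0% of 11869 genes did. The counts were 0 of 7 members and 0% of genes in Tuft, 0 of 8 and 0% in MucinDuctal, 0 of 9 and 0% in Epsilon, 0 of 7 and 0.0453% in EEC-Progenitor, 0 of 9 and 0.0154% in Delta, 0 of 9 and 0.0816% in ECL, and 0 of 9 and 0.159% in Ppy+ cells. Members left out had too few counts. At an unadjusted p below 0.05, 1 member stood in EEC, 3 in EEC-Progenitor, 2 in Delta, 4 in ECL, 2 in Epsilon and 4 in Ppy+ cells, and none in Tuft or MucinDuctal cells. The same held for 4.03%, 5.08%, 6.17%, 5.17%, 3.81% and 6.59% of all genes in the first 6 of these sets, 6.74% in Tuft and 5.39% in MucinDuctal cells. DESeq2 called no member in any set, with 1 member of ECL cells left without an adjusted p. Each time point has 2 mice.

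**Figure D5:**
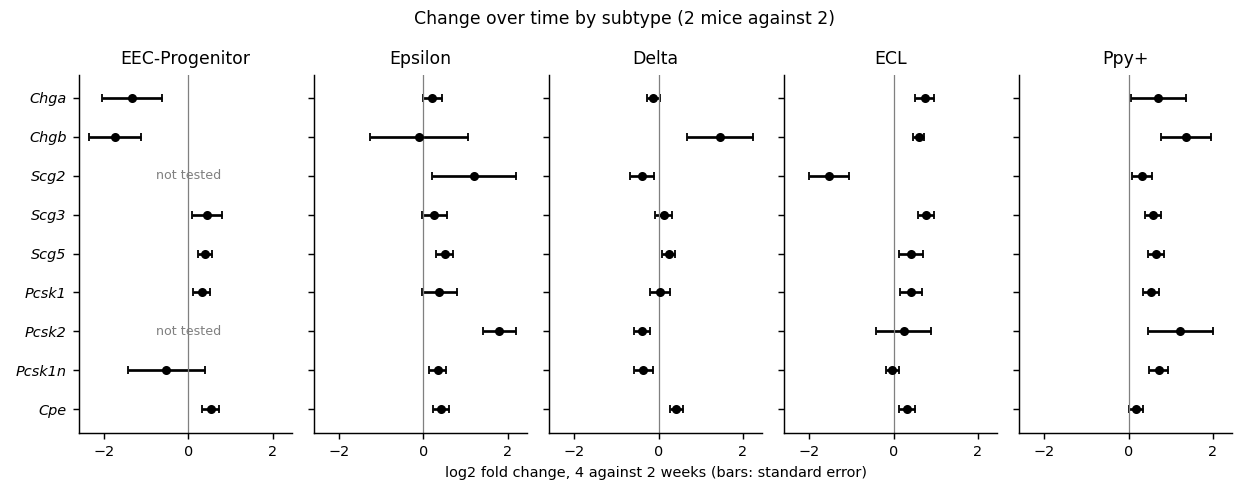
Fitted log2 fold change of each member from 2 to 4 weeks in the 5 subtypes, with its standard error. A positive value is higher at 4 weeks. No member passed the adjusted test, and Scg2 and Pcsk2 of EEC-Progenitor cells had too few counts to be tested.

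The values nearest the threshold lay in ECL cells. Chgb there had a log2 fold change of 0.59 (SE 0.13, edgeR adjusted p = 0.235), with both 4-week mice above both 2-week mice, and Scg3 went from 340 and 242 CPM to 509 and 479 CPM (log2 fold change 0.77, SE 0.19, adjusted p = 0.313). Scg2 had a log2 fold change of -1.53 (SE 0.48, edgeR adjusted p = 0.815), but without the Ins2-led cell of 2-week mouse 2 its levels were 22.9 and 3.39 CPM at 2 weeks against 13.4 and 10.7 CPM at 4 weeks, which overlap. Pcsk2 of Epsilon cells had the largest positive value, 1.79 (SE 0.39, adjusted p = 0.999). It passed when genes with low counts were kept (adjusted p = 1.99e-06) and when either 2-week mouse was left out (log2 fold change 2.83 without mouse 1, where 2.07% of all genes passed, and 1.28 without mouse 2, where 1.11% did). It did not pass without either 4-week mouse, without the hormone genes or with DESeq2, with adjusted p-values of 0.855 to 1.00. Among Ppy+ members Scg5 had the smallest p (0.65, SE 0.20, adjusted p = 0.655). Fold changes were above 0 for 9 of 9 members in Ppy+ (median 0.65), 9 of 9 in EEC (0.38), 8 of 9 in Epsilon (0.37), 7 of 9 in ECL (0.41), 5 of 9 in Delta (0.026), 4 of 7 in EEC-Progenitor (0.31), 5 of 7 in Tuft (0.64) and 2 of 8 in MucinDuctal cells (-0.25). Over all genes tested, 48.6% to 50.6% were above 0 in these sets, with medians of -0.010 to 0.0037.

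In CPM, both 4-week mice lay above both 2-week mice for 6 of 9 members in Ppy+ cells, where 8.94% of the genes tested did, and for 4 of 9 in Epsilon cells, where 3.87% did. The count was 4 of 9 in ECL (17.5% of genes), 3 of 9 in Delta (17.4%) and 3 of 9 in EEC-Progenitor cells (20.2%). They lay below for 1 member in ECL, which was Scg2 with the Ins2-led cell and Pcsk1n without it (15.2% of genes, all cells kept), 2 in Delta (17.7%), 2 in EEC-Progenitor cells (14.6%), and 0 in Epsilon (28.8%) and Ppy+ cells (30.9%). One library moved with these values. In 2-week mouse 2 EEC-Progenitor cells made up 38.4% of EEC cells, against 15.2% in 2-week mouse 1 and 24.7% and 28.3% in the 4-week mice. Of the 9 members, 7 were at their lowest of the 4 mice in 2-week mouse 2 in Ppy+ cells, 7 in Epsilon cells and 7 in ECL cells. The count was 3 in Delta and 3 in EEC-Progenitor cells. How many of all genes were lowest in that mouse was not counted, so the members are not set apart by this. The part of this library in the result was not tested.

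Leaving out 1 mouse changed which members passed. Without 2-week mouse 1, which leaves mouse 2 alone at that time, 5 members passed in EEC cells (Scg2, Scg3, Scg5, Pcsk1 and Cpe, with log2 fold changes of 0.71 to 1.40), 7 in Epsilon, 6 in ECL, 4 in Ppy+ and 3 in EEC-Progenitor cells. In these fits 3%, 2.07%, 1.86%, 2.16% and 2.03% of all genes tested passed. Without 2-week mouse 2, the same 5 members had -0.23, 0.13, 0.16, 0.018 and 0.081 in EEC cells. Chgb passed in ECL cells also without 2-week mouse 2 (0.52), where 0.893% of genes did. Without 4-week mouse 1 it passed in Delta (2.04) and Ppy+ cells (1.91), where 0.359% and 0.779% of genes did. Without 4-week mouse 2 the members past the threshold were Chgb in EEC-Progenitor cells (-3.09), Chga (1.21) and Pcsk1n (0.92) in Ppy+ cells, and Scg5 (2.34) and Pcsk2 (4.89) in Tuft cells, with 0.227%, 0.511% and 0.045% of genes in these 3 sets. In the Tuft cells of 4-week mouse 1, however, 75 of 111 Pcsk2 UMIs and 45 of 132 Scg5 UMIs came from 3 cells that carry an enteroendocrine subtype, without which the levels were 11.0 in place of 33.4 CPM and 26.6 in place of 39.7 CPM. With genes of low counts kept, and all mice, Chgb, Scg3 and Chga passed in ECL cells, Chgb in EEC-Progenitor, Pcsk1n in Ppy+ and Cpe in Tuft cells, besides Pcsk2 in Epsilon cells. Of all genes tested in that way, 0.34% passed in ECL, 0.3% in EEC-Progenitor, 0.392% in Ppy+, 1.44% in Tuft and 0.13% in Epsilon cells. The Chgb level behind the EEC-Progenitor fits was 6.95 to 67.8 CPM, with its lowest value within the range of B-cell marker cells.

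Of the pathway list, 0 of 7 to 0 of 12 genes that could be tested passed in each of the 8 sets. At an unadjusted p below 0.05 there were 2 of 7 in EEC-Progenitor (5.08% of all genes), 2 of 12 in MucinDuctal (5.39%), 1 of 11 in EEC (4.03%), 1 of 9 in Delta (6.17%), 1 of 9 in Epsilon (3.81%), and 0 of 8 in each of Tuft (6.74%), ECL (5.17%) and Ppy+ cells (6.59%). Examples were Pam in EEC-Progenitor cells, with a log2 fold change of -0.70 (SE 0.23, edgeR adjusted p = 0.716), and Ctsl in Epsilon cells, with 0.55 (SE 0.17, adjusted p = 0.999).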

How the data were processed

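Cells were sorted as EYFP-positive from the pancreas of 4 mice, per the labels, and sequenced with 10x 3' chemistry. The authors' filtered YFP+ table holds 13362 of the 21140 cells of their merged table, and the other 7778, which have no type, were used only for background and for cells rich in hormone RNA. Mouse numbers follow sample order and are names only. The deposited matrices hold whole UMI counts, 1 value for each gene in each cell, which the authors had not normalized, and the deposited label tables give type and subtype. The submitters' processing notes name mm10, Cell Ranger 4.0.0 and Seurat 3.2.3. How labels were assigned, and whether doublets were removed, is not given in the sources used here. No doublet caller was run, and results were also computed without the 5% deepest cells.

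UMIs were summed per mouse and label and divided by the label's total to give CPM. The SD is over mice. Mice contributed 4715 to 6255 cells and 72459531 to 103610807 UMIs, every cell having at least 1000. Shares of cells carry exact Clopper-Pearson 95% intervals, and a count of 0 allows up to 3 counts. Both cover counting error only. For equal depth each cell was thinned to 1500 UMIs by exact expectation, shallower cells left out. Background cells without a type had at least 3 of 4 B-cell markers. 4 against 2 weeks was tested in labels with at least 20 cells in every mouse, with edgeR 4.0.16 (quasi-likelihood, robust, TMM, filterByExpr, Benjamini-Hochberg over all genes tested) in R 4.3.3. DESeq2 1.42.0, no filter on low counts, totals without hormone genes and leaving out each mouse were alternatives. Labels do not say more of how the mice of a group were related, so p-values measure the spread between these mice. The fitting was tested on simulated data. Promoters came from RefSeq (GRCm38.p6).

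The members, the pathway list and the hormone list were chosen with earlier results of these data known. Named genes were the 9 members, the pathway list and, for each member, the 3 genes of most similar pattern.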

Additional observations from a re-analysis of the deposited data

Results flagged for a closer look

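Some members lay apart between both 4-week and both 2-week mice in opposite directions in different subtypes. The difference between subtypes was not tested for any of these, and no single fold change passed the adjusted test. Of all genes tested, both 4-week mice lay above both 2-week mice for 20.2% in EEC-Progenitor, 17.4% in Delta, 17.5% in ECL, 3.87% in Epsilon and 8.94% in Ppy+ cells. They lay below for 14.6%, 17.7%, 15.2%, 28.8% and 30.9% in the same order. How many of all genes go opposite ways was not counted, so the members are not set apart from other genes by this. Fold changes are log2, 4 against 2 weeks. Chga had 0.74 in ECL cells, but -1.34 in EEC-Progenitor and -0.12 in Delta cells. Chgb had 1.45 in Delta, 0.59 in ECL and 1.37 in Ppy+ cells, but -1.74 in EEC-Progenitor cells. Its level in EEC-Progenitor cells was only 6.95 to 67.8 CPM, and the lowest value lay within the 4.45 to 15.1 CPM of B-cell marker cells. Scg2 had 1.19 in Epsilon and -1.53 in ECL cells, but without the 1 Ins2-led cell of 2-week mouse 2 the ECL mice overlapped (22.9 and 3.39 CPM against 13.4 and 10.7 CPM). Pcsk2 had 1.79 in Epsilon and 1.23 in Ppy+ cells, but -0.39 in Delta cells.

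Cells without a type, which are outside the authors' filtered YFP+ table, also held Pcsk2. Among those with at least 5% of their UMIs from the hormone list, a limit chosen after seeing the data, Sst-led cells held 1049 CPM (30 cells), Ppy-led cells 881 CPM (16 cells), Pyy-led cells 877 CPM (17 cells) and Ghrl-led cells 35.5 CPM (79 cells, 17 UMIs). B-cell marker cells held 0 to 1.82 CPM. In cells without a type, the leading hormone is the listed gene with most UMIs, without the limits set for ECL cells.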

How the results depend on the processing

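No paired analysis was possible because the labels give the mice no shared replicate numbers. DESeq2 called 13 genes over time in EEC, 31 in Tuft, 40 in MucinDuctal, 7 in EEC-Progenitor, 2 in Delta, 1 in Epsilon and 5 in Ppy+ cells, and 4 in ECL cells. With no filter on low counts 74, 266, 6, 50, 24, 22 and 60 were called in the same order, with 54 in ECL cells. Leaving out each mouse in turn gave 0 to 366 genes in EEC, 5 to 273 in Tuft, 0 to 191 in MucinDuctal, 12 to 195 in EEC-Progenitor, 29 to 50 in Delta, 6 to 155 in ECL, 0 to 204 in Epsilon and 39 to 141 in Ppy+ cells, the lone mouse of a time point being assumed to vary like the others. Over the same omissions the log2 fold change in EEC cells ran from -0.23 (without 2-week mouse 2) to 1.40 (without 2-week mouse 1) for Scg2, and from -0.074 (without 4-week mouse 1) to 0.58 (without 4-week mouse 2) for Chga. The cause was not tested. As a mean over cells in place of summed UMIs, the Pcsk1 share was 31.2% in Delta, 35.7% in ECL and 23.8% in Ppy+ cells. Leaving out each mouse gave shares of 95.1% to 98.2% in EEC-Progenitor, 81.4% to 86.6% in Epsilon, 12.1% to 15.3% in Delta, 13.9% to 17.0% in ECL and 11.4% to 17.3% in Ppy+ cells. Of the 45 levels by member and subtype, 16 moved by more than 1 SD when hormone genes were left out of the total, 2 without the 5% deepest cells and 2 as a mean over cells, while thinning moved 44 of 45 shares of cells. Moves of over 1.5 times within 1 SD were Chgb in Epsilon cells (371 CPM, 201 without the deepest cells, 238 as a mean over cells), Scg2 in Epsilon cells (66.3, 43.6 and 43.7) and Scg2 in ECL cells (22.2, and 13.2 without the deepest cells). With hormone genes left out of the total, some means of neighbouring subtypes changed order. Scg3 was then 444 CPM in Ppy+ and 402 CPM in ECL cells. Scg5 was 758 CPM in Epsilon and 703 CPM in Delta cells, and Chga 1030 CPM in Ppy+ and 959 CPM in Delta cells. The means of Cpe moved apart, to 1478 CPM in Ppy+ and 1140 CPM in ECL cells. Depth limits the statements on cells without a UMI, and 2 mice at each time point limit those on time.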

Other observations

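Other genes were read in the cells without a type that carried much hormone RNA. The 79 Ghrl-led cells held Pcsk1 at 92.0 CPM, Scg5 at 293 CPM and Cpe at 408 CPM, and the 30 Sst-led cells held Pcsk1 at 92.7 CPM, Scg5 at 393 CPM and Cpe at 404 CPM. Their median depths were 1960 and 8385 UMIs. A further 2 cells led by Ins2 held Scg2 at 1067 CPM and Pcsk2 at 1015 CPM. These cells have no label, so the values stand without a comparison.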
